A study of Mus musculus with 3 samples.

Results

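The 44 mouse genes that encode the receptors for glutamate and GABA were examined in ATAC-seq peak lists of 2 kinds of cortical projection neuron. They were chosen by symbol from the 21883 protein-coding genes that RefSeq places on the chromosomes of GRCm38.p6, also called mm10. They comprise 4 AMPA, 5 kainate, 2 delta and 7 NMDA receptor genes (Gria, Grik, Grid and Grin), 8 metabotropic glutamate receptor genes (Grm), 13 GABA-A subunit genes (Gabra, Gabrb, Gabrg and Gabrd), 3 rho subunit genes (Gabrr) and 2 GABA-B receptor genes (Gabbr).

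Corticospinal motor neurons (CSMN, 1 library) and callosal projection neurons (CPN, 2 libraries, CPN 1 and CPN 2) were sorted by flow cytometry from mouse brain, and their nuclei were treated with a transposase that cuts and tags open DNA. CSMN send axons from the deep cortex to the spinal cord, and CPN send axons across the corpus callosum to the other hemisphere. The sources used here do not give strain, age, sex, genotype or the markers of the sorts, and no treatment is named. CSMN had 1 library, so no test between the cell types was possible, and the difference between CPN 1 and CPN 2 is the only spread between libraries of one kind.

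Glutamate is the main excitatory transmitter of the cortex and GABA the main inhibitory one. AMPA, kainate and NMDA receptors are cation channels opened by glutamate, metabotropic glutamate receptors and GABA-B receptors act through G proteins, and GABA-A receptors are chloride channels built of 5 subunits. Delta receptors resemble AMPA receptors in sequence but serve mainly as synaptic organisers that bind cerebellins. Open chromatin marks where regulatory proteins can reach DNA, at promoters and at distal elements within or beside a gene, and it does not measure the level of a transcript.

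Most receptor genes had a peak within 1 kb of a gene end or start site in both cell types. A peak stood within 1 kb of a gene end, start or stop, in all 3 libraries at 38 of the 44 genes, or 86.4%, against 64.1% of all protein-coding genes. The gene table gives no strand, so start sites were taken from the RefSeq promoter table, which held 36 start sites for 29 members. A peak lay within 1 kb of the start site in all 3 libraries at 30 of the 36 sites and at 24 of the 29 genes. These are 83.3% of the sites and 82.8% of the genes, against 64.5% and 65% for all protein-coding genes in that table. The 5 exceptions were Gabra6, Gabrr1, Gabrr2 and Gabrr3, with no start-site peak in any library, and Grin2c, with none in CSMN and peak folds of 2.12 in CPN 1 and 3.22 in CPN 2. Gabra6 encodes a GABA-A subunit best known from cerebellar granule cells, the rho genes encode subunits best known from the retina, and Grin2c encodes an NMDA subunit best known from the cerebellum. Start sites of the other members were not used here.

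The promoters of 5 genes are printed here to set starts that were open in all 3 libraries beside starts that were open in none. Gabra4, Gabrb1 and Gria4 had a start-site peak in every library, and Gabra6 and Gabrr1 had none in any. Each sequence holds the 250 bases before the start site in lower case and the first 30 transcribed bases in capitals, from RefSeq on GRCm38.p6. The Gabra4 sequence is at chr5:71658279-71658558, minus strand, and that of Gabrb1 at chr5:71657671-71657950, plus strand. The Gria4 sequence is at chr9:4796205-4796484, minus strand, that of Gabra6 at chr11:42321043-42321322, minus strand and that of Gabrr1 at chr4:33132306-33132585, plus strand.
Gabra4: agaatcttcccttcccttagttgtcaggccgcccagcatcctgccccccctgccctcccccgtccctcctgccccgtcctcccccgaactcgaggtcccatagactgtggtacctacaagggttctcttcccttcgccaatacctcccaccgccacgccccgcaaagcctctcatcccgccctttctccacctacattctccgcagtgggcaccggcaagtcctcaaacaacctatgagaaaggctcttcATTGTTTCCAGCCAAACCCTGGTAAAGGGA
Gabrb1: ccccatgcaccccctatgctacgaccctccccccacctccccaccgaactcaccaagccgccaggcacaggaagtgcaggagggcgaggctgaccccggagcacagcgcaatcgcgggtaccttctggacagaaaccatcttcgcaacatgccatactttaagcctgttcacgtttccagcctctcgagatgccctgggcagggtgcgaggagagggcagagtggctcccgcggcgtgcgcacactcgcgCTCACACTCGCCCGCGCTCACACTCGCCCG
Gria4: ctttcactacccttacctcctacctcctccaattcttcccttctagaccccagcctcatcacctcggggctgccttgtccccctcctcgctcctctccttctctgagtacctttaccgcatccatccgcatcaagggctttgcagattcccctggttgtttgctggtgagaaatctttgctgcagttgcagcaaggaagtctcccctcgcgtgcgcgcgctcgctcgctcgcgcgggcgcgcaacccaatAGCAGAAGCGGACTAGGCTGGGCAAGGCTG
Gabra6: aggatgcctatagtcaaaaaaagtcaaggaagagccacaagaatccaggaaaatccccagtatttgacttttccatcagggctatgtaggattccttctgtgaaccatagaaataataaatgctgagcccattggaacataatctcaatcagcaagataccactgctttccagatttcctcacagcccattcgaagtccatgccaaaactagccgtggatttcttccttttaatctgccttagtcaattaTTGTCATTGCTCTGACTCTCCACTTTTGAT
Gabrr1: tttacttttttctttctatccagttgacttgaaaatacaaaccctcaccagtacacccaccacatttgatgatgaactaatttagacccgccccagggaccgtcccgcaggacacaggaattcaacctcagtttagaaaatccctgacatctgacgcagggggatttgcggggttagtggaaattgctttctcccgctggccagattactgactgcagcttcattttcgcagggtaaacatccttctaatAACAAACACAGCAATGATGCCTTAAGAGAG

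G and C made up 59.6% of the printed Gabra4 sequence, 65.4% of the Gabrb1 sequence and 59.3% of the Gria4 sequence, against 40.7% for Gabra6 and 45.4% for Gabrr1. Over the 300-base windows of the table, the median GC content was 60.8% at the 30 receptor start sites with a peak within 1 kb in all 3 libraries (range 38.3 to 82%). It was 47% at the 5 sites with no peak (42 to 49.3%) and 52.7% over all 32851 windows. A peak within 1 kb need not cover the start site. At Gabrg1 (38.3%) and Grik3 (82%), the ends of the range, no peak of any library covered it. Whether GC content has a part in peak calling was not tested.

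Short binding motifs were searched on both strands of the same windows. The SP-type motif GGGCGG was in 17 of the 36 receptor windows, or 47.2%, against 35.7% of all windows. The core TGACG of the cyclic-AMP response element was in 5 windows, or 13.9%, against 20.8%, at Gabrb2, Gabrr1, Grik2, Grin1 and Grm8. TATAAA was in 4 windows (11.1%, against 13.6%), CAGATG in 3 (8.33%, against 17.2%), TGANTCA in 2 (5.56%, against 7.81%) and GCATGCGC in 1, at Gabrb1 (2.78%, against 2.71%). TTCAGCACC, the left part of the RE1 element bound by the repressor REST, was in 1 receptor window, at Grm2 (2.78%, against 0.371%). No receptor window held TGACGTCA (1.79% of all windows), GCGTGGGCG (0.612%) or CAGCTG (16.3%). Matches of TGACG and TGACGTCA would overlap, and a match describes letters and not a bound site.

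The promoters of Grin1, which encodes the obligatory NMDA receptor subunit, and Grm2, a presynaptic metabotropic receptor, are printed with these matches. Capitals mark CGTCA, which is TGACG on the other strand, 2 times at Grin1 (chr2:25319158-25319437, minus strand), and the left part of RE1 at Grm2 (chr9:106656080-106656359, minus strand). Both starts had a peak in all 3 libraries.
Grin1: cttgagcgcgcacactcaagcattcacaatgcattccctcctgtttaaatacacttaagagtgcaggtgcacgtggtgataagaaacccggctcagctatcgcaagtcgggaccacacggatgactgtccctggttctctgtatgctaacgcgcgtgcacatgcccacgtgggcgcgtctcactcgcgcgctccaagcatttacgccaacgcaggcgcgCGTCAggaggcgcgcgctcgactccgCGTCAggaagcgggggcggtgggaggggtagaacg
Grm2: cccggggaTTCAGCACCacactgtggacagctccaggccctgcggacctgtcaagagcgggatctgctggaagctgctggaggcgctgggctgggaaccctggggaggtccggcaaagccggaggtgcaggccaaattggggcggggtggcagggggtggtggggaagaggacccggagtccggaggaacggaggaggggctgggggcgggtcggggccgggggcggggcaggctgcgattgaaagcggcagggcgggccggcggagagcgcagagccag

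The Grin1 start peak had a fold enrichment of 5 in CSMN, 10.5 in CPN 1 and 10.9 in CPN 2, and the Grm2 start peak 3.36 in CSMN, 5.22 in CPN 1 and 6.96 in CPN 2. These folds are the peak caller's own values for signal over background at the summit, and they rank peaks within a list but do not measure a difference between lists. The median fold of all peaks was 2.86 in CSMN, 3.82 in CPN 1 and 3.68 in CPN 2, so the CSMN list had the lowest median.

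The lists differed in length. CSMN had 98067 peaks, CPN 1 had 134018 and CPN 2 had 158779, covering 39.7, 54.7 and 47.2 Mb. A −log10 q of at least 5 was reached by 55.2% of the CSMN peaks, 72.4% of the CPN 1 peaks and 65.4% of the CPN 2 peaks. The lists give no read counts, so sequencing depth is unknown. Of the markers of each cell type, those with a gene-end peak in all 3 libraries were 5 of 5 for CSMN, 3 of 5 for CPN (Inhba had none in any library) and 4 of 5 for excitatory neurons (Slc17a7 lacked one in CPN 1). The same held for 8 of 8 inhibitory neuron, 4 of 6 astrocyte, 4 of 6 oligodendrocyte lineage, 2 of 6 microglial and 5 of 5 endothelial markers. The inhibitory neuron and endothelial markers thus all had open ends in every library, the astrocyte and oligodendrocyte shares were near the 64.1% of all genes and the microglial one was below it. The part of other cells in the receptor peaks was not tested.

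The windows of the receptor genes, each gene body plus 10 kb on each side, held 452 peaks in CSMN, 591 in CPN 1 and 650 in CPN 2. As a share of the list these were 0.461% in CSMN (95% Wilson interval 0.420 to 0.505), 0.441% in CPN 1 (0.407 to 0.478) and 0.409% in CPN 2 (0.379 to 0.442). The intervals, here and throughout, cover counting error only, and those of the 3 libraries overlap. When each list was trimmed to its 98067 strongest peaks, the receptor genes held 452 peaks in CSMN, 426 in CPN 1 and 394 in CPN 2.

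All 44 genes had a peak in each library, and Gabra6 had the fewest, with 1 in each. Gabra6 had no gene-end peak, and its 1 region lay within the gene, 5966 bp from the nearest end in CSMN and CPN 2. CSMN had more peaks than both CPN libraries at 6 genes, or 13.6%, against 7.09% of all protein-coding genes. It had fewer than both at 19, or 43.2%, against 43.9%. Among genes of at least 100 kb it had fewer than both at 12 of the 26 receptor genes, or 46.2%, against 73.6% of the 2428 protein-coding genes of that length.

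**Figure D1:**
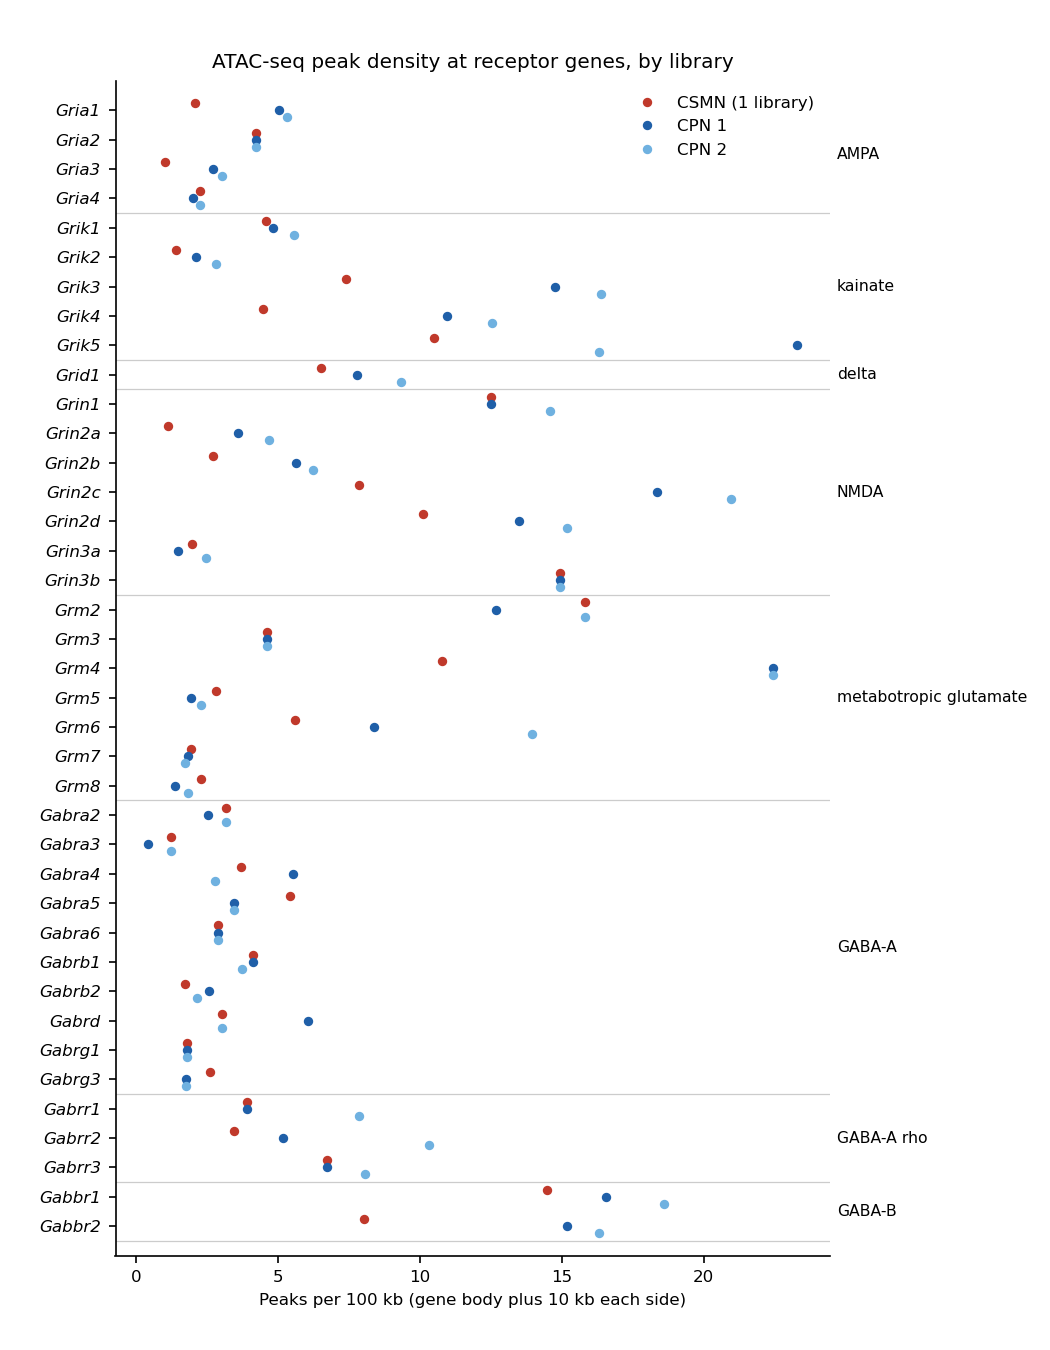
Peaks per 100 kb of window (x axis) for 39 receptor genes (rows, grouped by receptor family), with 1 point for CSMN, 1 for CPN 1 and 1 for CPN 2. CSMN lies left of both CPN points at Grik3, Grik4 and Gabbr2 and right of both at Gabra5, Gabrg3, Grm5 and Grm8.

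Peaks of the 3 lists that overlapped by at least 1 bp were merged into regions, which gave 896 regions at the receptor genes. A peak in all 3 libraries marked 269 of them, or 30.02%, against 32.4% of the 134370 regions at all protein-coding genes. Regions with a peak in the CSMN list and in no CPN list, called CSMN-only, numbered 136, or 15.2% against a background of 9.41%. Regions with a peak in CPN 1 and CPN 2 and without one in CSMN, called CPN-only, numbered 167, or 18.6% against 19.5%. A further 131 were found in CPN 1 alone, 156 in CPN 2 alone, 18 in CSMN and CPN 1, and 19 in CSMN and CPN 2. Windows of neighbouring members shared 5 regions, each counted once in these totals, and 18 of the 896 overlapped the body of a gene outside the family.

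Of the regions of these 2 classes, 44.9% (39.4 to 50.5) were CSMN-only at receptor genes, against 32.5% (32.0 to 33) at all protein-coding genes. By gene, 19 members had more CSMN-only than CPN-only regions, or 43.2%, against 16.9% of the protein-coding genes with a region. The opposite held for 14 members, or 31.8%, against 44.2%, and 11 were equal. When a CPN-only region needed only 1 CPN library, 23 members had more CPN-only regions both without CPN 1 and without CPN 2, against 68.1% and 57.4% of genes, and 14 members had more CSMN-only regions in both cases, against 10.7% and 14.3%. With 50 kb on each side of the gene the order by gene turned round, with 16 members that had more CSMN-only and 19 that had more CPN-only regions, or 36.4% and 43.2%, against 21.2% and 60.7% of genes. Among the 25 members with at least 10 regions, 13 had more CSMN-only regions (52%, against 17.7% of such genes) and 10 had more CPN-only regions (40%, against 71.9%). The median difference between CSMN-only and CPN-only regions was 0 for members and 0 for all genes with a region.

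Most CSMN-only regions were weak. At receptor genes 12 of the 136 CSMN-only regions, or 8.82%, reached a −log10 q of 5 (10.96% of CSMN-only regions at all genes), against 73.1% of the 167 CPN-only regions in CPN 1 and 67.1% in CPN 2. With only peaks of at least that strength kept in all lists, the share was 10.3% (6.53 to 15.9), against 8.34% at all protein-coding genes, and 2 members (Gabra2 among them) had more CSMN-only regions while 28 had more CPN-only ones. These are 4.55% and 63.6% of members, against 3.53% and 52.4% of genes. With lists of equal length the share was 63.9%, against 53.7% at all protein-coding genes. The receptor share was thus the higher of the pair under each of these settings, but at the stronger threshold its interval covers the share of all genes.

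**Figure D2:**
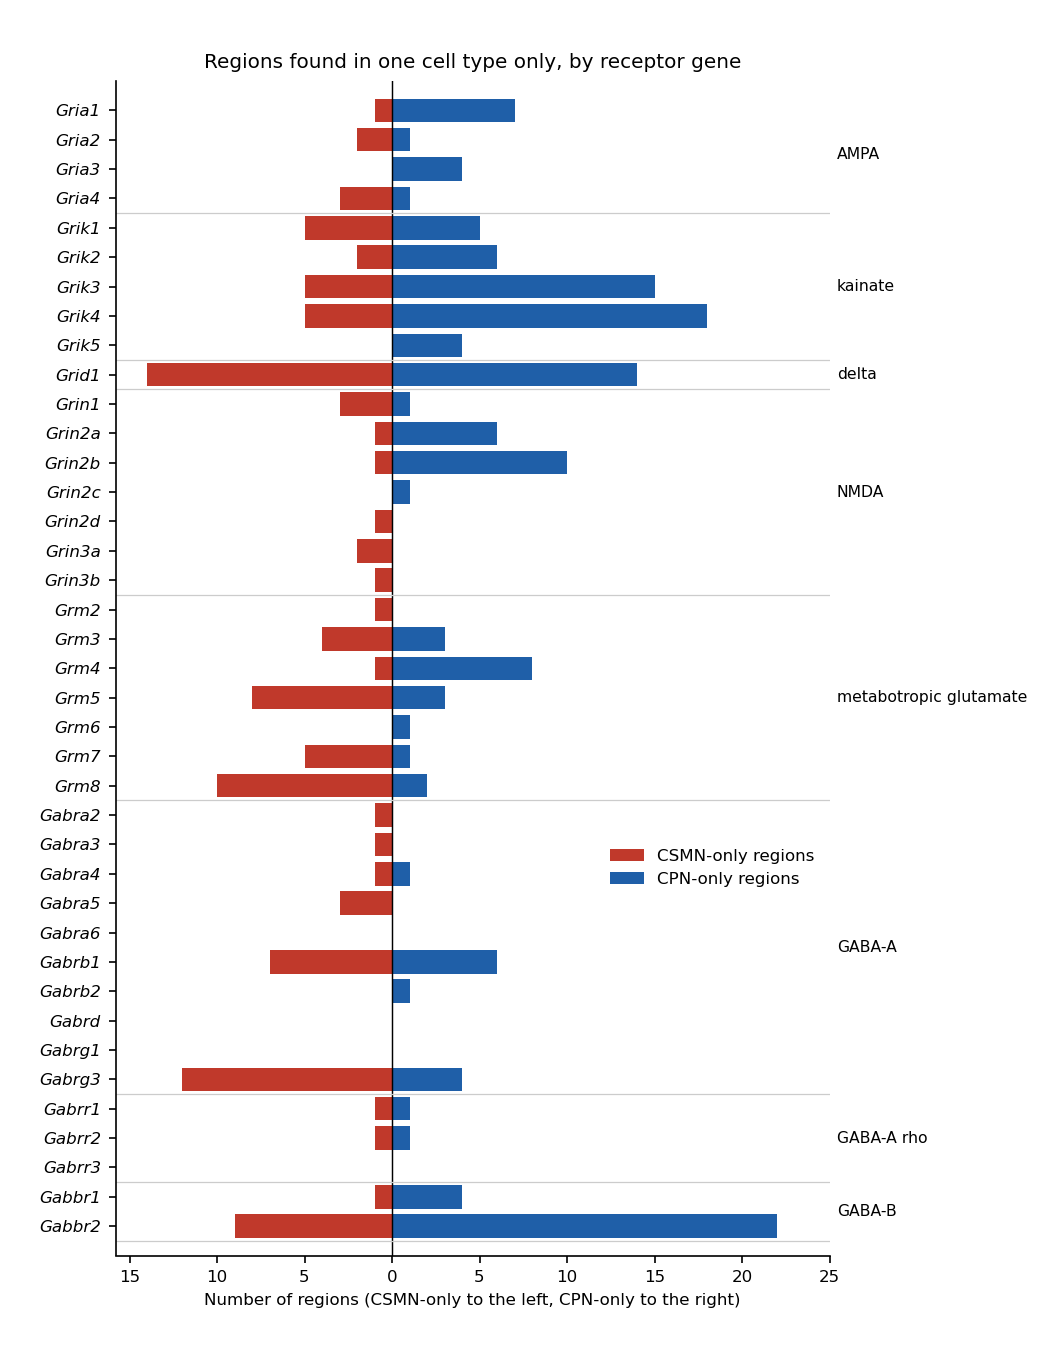
Number of CSMN-only regions (bars to the left) and CPN-only regions (bars to the right) in the window of 39 receptor genes, grouped by family. Gabbr2, Grik4 and Grik3 have the longest CPN-only bars, at 22, 18 and 15, and Grid1 and Gabrg3 the longest CSMN-only bars, at 14 and 12.

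The AMPA receptor genes together had 6 CSMN-only regions against 13 CPN-only ones, so that 31.6% of both classes were CSMN-only, their CSMN-only share (15.4 to 54.0). That is near the 32.5% of all protein-coding genes. Gria1, which encodes the subunit GluA1 that is added to synapses during long-term potentiation, had 7 peaks in CSMN, 17 in CPN 1 and 18 in CPN 2. Of its regions 1 was CSMN-only and 7 were CPN-only. Its gene-end peak had a fold of 2.52 in CSMN, 8.12 in CPN 1 and 8.12 in CPN 2. It stood within the top 68.6% of the CSMN list, 17.2% of the CPN 1 list and 14.8% of the CPN 2 list. By place in its own list the CSMN peak stood the lowest of the 3, but neither fold nor place measures a difference between lists.

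Gria2, whose product makes AMPA receptors nearly impermeable to calcium, had 6 peaks in each library, 2 CSMN-only regions and 1 CPN-only region. Its start-site peak had a fold of 8.75 in CSMN, 13.2 in CPN 1 and 13.3 in CPN 2 and stood within the top 3.44%, 3.12% and 3.04% of the lists. Gria3 on the X chromosome had 3, 8 and 9 peaks in CSMN, CPN 1 and CPN 2, with no CSMN-only and 4 CPN-only regions. Gria4, the subunit GluA4, had 9, 8 and 9 peaks. The Gria4 start peak was among the strongest of the family, with a fold of 13.5 in CSMN, 14.5 in CPN 1 and 16.1 in CPN 2. Its summit lay 16 bp from the start site in all 3 libraries, within the capitals of the sequence printed above.

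The kainate receptor genes held 17 CSMN-only regions against 48 CPN-only ones, a share of 26.2% (17 to 38) whose interval covers the 32.5% of all protein-coding genes. Grik4, which encodes the high-affinity subunit GluK4, spans chr9:42518182-42945000 and had 20 peaks in CSMN, 49 in CPN 1 and 56 in CPN 2. It had 5 CSMN-only and 18 CPN-only regions. Grik3, the subunit GluK3 (chr4:125490259-125714173), had 18 peaks in CSMN, 36 in CPN 1 and 40 in CPN 2, with 5 CSMN-only and 15 CPN-only regions. At both genes the CPN counts lay closer to each other than to the CSMN count.

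None of the CSMN-only regions of Grik3 or Grik4 reached a −log10 q of 5, while 6 CPN-only regions of each gene did so in both CPN libraries. Grik5, the high-affinity subunit GluK5, had 9, 20 and 14 peaks in CSMN, CPN 1 and CPN 2, and no CSMN-only but 4 CPN-only regions. Here the CPN libraries differed from each other by more than CPN 2 did from CSMN. Grik2, the subunit GluK2, had 10, 15 and 20 peaks, with 2 CSMN-only and 6 CPN-only regions, and Grik1 had 19, 20 and 23 peaks with 5 of each kind. Grik2 had a start-site peak in all 3 libraries, with folds of 11, 15.9 and 16.5, although in the CPN lists no peak lay within 1 kb of the gene end in the table.

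The best-ranked peak of all receptor windows belonged to that of Grik5. Its summit lay 1474 bp from the gene end, outside the gene, in each library, with a fold of 13.1 in CSMN, 17 in CPN 1 and 14.9 in CPN 2. It stood within the top 0.789% of the CSMN list, 0.340% of the CPN 1 list and 0.444% of the CPN 2 list. Grik5 also had 26.8 regions per 100 kb, second to Grm4 (28.7) among the members and followed by Grik3 (23.0), Gabbr2 (21.2), Grin2c (21.0) and Grin1 (20.8).

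Grid1, which encodes a delta receptor, had the most regions of any member, 98, with 51 peaks in CSMN, 61 in CPN 1 and 73 in CPN 2. Its regions included 14 of each kind, and the peak count was lowest in CSMN.

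The 7 NMDA receptor genes held 9 CSMN-only regions against 18 CPN-only ones, a share of 33.3% (18.6 to 52.2), near the 32.5% of all protein-coding genes. By gene, 4 had more CSMN-only and 3 more CPN-only regions, or 57.1% and 42.9%, against 16.9% and 44.2% of genes. Grin2b, which encodes the GluN2B subunit that prevails early in cortical development, had 13 peaks in CSMN, 27 in CPN 1 and 30 in CPN 2. It had 1 CSMN-only and 10 CPN-only regions. Grin2a, the subunit GluN2A that becomes common as the cortex matures, had 5 peaks in CSMN, 16 in CPN 1 and 21 in CPN 2, with 1 CSMN-only and 6 CPN-only regions. Both genes of these main GluN2 subunits of the cortex thus had fewer CSMN than CPN peaks. Each is longer than 100 kb, and the same held for 73.6% of the 2428 protein-coding genes of at least that length.

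The strongest CPN-only region of all receptor genes lay in the body of Grin2b, at chr6:136150024-136150749, 23379 bp from the nearer gene end. Its fold was 13.2 in CPN 1 and 13.1 in CPN 2, and the CSMN list had no peak there. The table used here gives no exons, so an intron cannot be told from an exon. Elsewhere in the gene, the best-ranked peak was shared, with folds of 8.33 in CSMN, 15.5 in CPN 1 and 16.4 in CPN 2, and its summit in both CPN libraries lay 194508 bp from the nearer gene end. Grin1 had 6, 6 and 7 peaks in CSMN, CPN 1 and CPN 2 and 3 CSMN-only against 1 CPN-only region. Grin3a (4, 3 and 5 peaks), Grin3b (4 in each) and Grin2d (6, 8 and 9) had 2, 1 and 1 CSMN-only regions and no CPN-only region. Grin2c had 3, 7 and 8 peaks, and its best-ranked peak in every library lay within 1 kb of an end of its neighbour Fdxr, as that of Grin3b did for Wdr18.

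The metabotropic glutamate receptor family had 37 CSMN-only regions against 23 CPN-only ones. Its share was 61.7% (49.0 to 72.9), against 32.5% at all protein-coding genes. More CSMN-only regions were found at 6 of the 8 genes and more CPN-only regions at 2. Of all protein-coding genes with a region, 16.9% had more CSMN-only and 44.2% more CPN-only regions. The share of the family was 49.4% without CPN 1 and 48.2% without CPN 2, against 21.4% and 26.2% at all protein-coding genes. Grm8, a presynaptic autoreceptor gene at chr6:27275121-28135146, had 20 peaks in CSMN, 12 in CPN 1 and 16 in CPN 2. It had 10 CSMN-only and 2 CPN-only regions. Grm5, the gene of the postsynaptic receptor mGluR5 at chr7:87583981-88135063, had 16 peaks in CSMN, 11 in CPN 1 and 13 in CPN 2, with 8 CSMN-only and 3 CPN-only regions. The CSMN count was the highest of the 3 at both genes, and the gap to CPN 2 at Grm8 was as large as that between the CPN libraries.

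Grm7, another presynaptic receptor gene, had 18, 17 and 16 peaks in CSMN, CPN 1 and CPN 2, with 5 CSMN-only regions and 1 CPN-only region. Grm3 had 4 CSMN-only against 3 CPN-only regions, and Grm2 had 1 against 0. At the stronger peak threshold the difference of CSMN-only minus CPN-only regions was 0 at Grm8, -2 at Grm5 and -2 at Grm7. By fold, the strongest CSMN-only regions of all receptor genes nevertheless lay in this family. They were in Grm8 at chr6:28102692-28103284 with a fold of 3.99 and in Grm5 at chr7:88091066-88091566 with a fold of 3.90. By −log10 q the strongest was in Gabra2 (17.1), before those in Grm8 (12.7) and Grm5 (12.1).

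Grm4 leaned the other way from most of its family. It encodes a presynaptic receptor of the same pharmacological group as Grm7 and Grm8, and it had 12 peaks in CSMN, 25 in CPN 1 and 25 in CPN 2. Of its regions 1 was CSMN-only and 8 were CPN-only, and its window was the densest of all members. Grm6, known from retinal bipolar cells, had 2, 3 and 5 peaks in CSMN, CPN 1 and CPN 2, and its best-ranked peak lay within 1 kb of an end of the neighbouring gene Zfp879 in every library.

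The GABA-A receptor genes had 27 CSMN-only regions against 13 CPN-only ones. Against 32.5% at all protein-coding genes, their share was 67.5% (52.0 to 79.9). It was the highest of the 8 families with the full lists, while equal list lengths gave it 78.0%, beside 78.3% for the metabotropic glutamate receptor genes. They were also the 1 family with more peaks in CSMN (77) than in CPN 1 (68) or CPN 2 (68). Among the 13 genes, 6 had more CSMN-only regions, 1 had more CPN-only regions and 6 were equal. Of all protein-coding genes with a region, 16.9% had more CSMN-only and 44.2% more CPN-only regions. At the stronger threshold 5 CSMN-only and 12 CPN-only regions were left, a share of 29.4% (13.3 to 53.1), against 8.34% at all protein-coding genes. The share was 62.7% without CPN 1 and 58.2% without CPN 2, against 21.4% and 26.2% at all protein-coding genes.

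Gabrg3, the gamma 3 subunit gene at chr7:56716463-57387215, had 18 peaks in CSMN, 12 in CPN 1 and 12 in CPN 2. Its 12 CSMN-only regions were scattered through the gene, 2 of them at a −log10 q of at least 5, and 4 regions were CPN-only. Gabra5, the alpha 5 subunit gene known for tonic inhibition, had 11 peaks in CSMN, 7 in CPN 1 and 7 in CPN 2, with 3 CSMN-only regions and no CPN-only region.

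Subunit genes of GABA-A receptors lie in clusters. The chromosome 5 cluster of Gabrg1, Gabra2, Gabra4 and Gabrb1, with the stretches between these genes, had 39 peaks in CSMN, 42 in CPN 1 and 35 in CPN 2, with 12 CSMN-only and 8 CPN-only of 60 regions. The CSMN count there lay between those of the CPN libraries.

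The gene bodies of Gabra4 and Gabrb1 overlap by 388 bp, and their start sites, printed above, lie 387 bp apart on opposite strands. A single peak covered both starts, with a fold of 6.83 in CSMN, 10.9 in CPN 1 and 12.3 in CPN 2, and its summit lay 18 bp from the Gabrb1 start in CSMN and 34 bp from it in both CPN libraries. A peak at such a pair cannot be assigned to either gene. Gabrb1 had 7 CSMN-only and 6 CPN-only regions, Gabrd, Gabrg1 and Gabra6 had none of either kind, and Gabra2, Gabra3, Gabra4 and Gabrb2 had at most 1 of each.

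The 3 rho genes had 9 peaks in CSMN, 10 in CPN 1 and 16 in CPN 2, with 2 CSMN-only and 2 CPN-only regions. Gabrr2 had its 1 gene-end peak in CPN 2, with a fold of 2.92, within the top 80.5% of that list. Gabrr3 had no gene-end peak, and its best-ranked peak in the CPN libraries lay within 1 kb of an end of its neighbour Riox2.

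The GABA-B receptor genes had 10 CSMN-only regions against 26 CPN-only ones, a share of 27.8% (15.8 to 44.0) whose interval covers the 32.5% of all protein-coding genes. Gabbr2, the subunit that couples the receptor to G proteins, spans chr4:46662318-46991714 and had 28 peaks in CSMN, 53 in CPN 1 and 57 in CPN 2. Its 9 CSMN-only and 22 CPN-only regions gave it, with Grik4, the largest CPN-only excess. None of the 9 reached a −log10 q of 5, and 9 of the 22 did so in both CPN libraries. Gabbr1, the subunit that binds GABA, had 7, 8 and 9 peaks, with 1 CSMN-only and 4 CPN-only regions.

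With lists of equal length the CPN-only excess was gone at 5 of the 6 genes where it had been largest. The difference of CSMN-only minus CPN-only regions was then 1 at Gabbr2, 0 at Grik4, 1 at Grik3, 1 at Grm4 and 0 at Gria1, and it was -4 at Grin2b. A CSMN-only excess was there with these lists too at Gabrg3 (10), Grm8 (10), Grm5 (6), Grm7 (6) and Gabra5 (4). Equal length removes the weakest peaks of the CPN lists and none of CSMN, so a CSMN-only excess could not shrink by losing CSMN peaks.

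**Figure D3:**
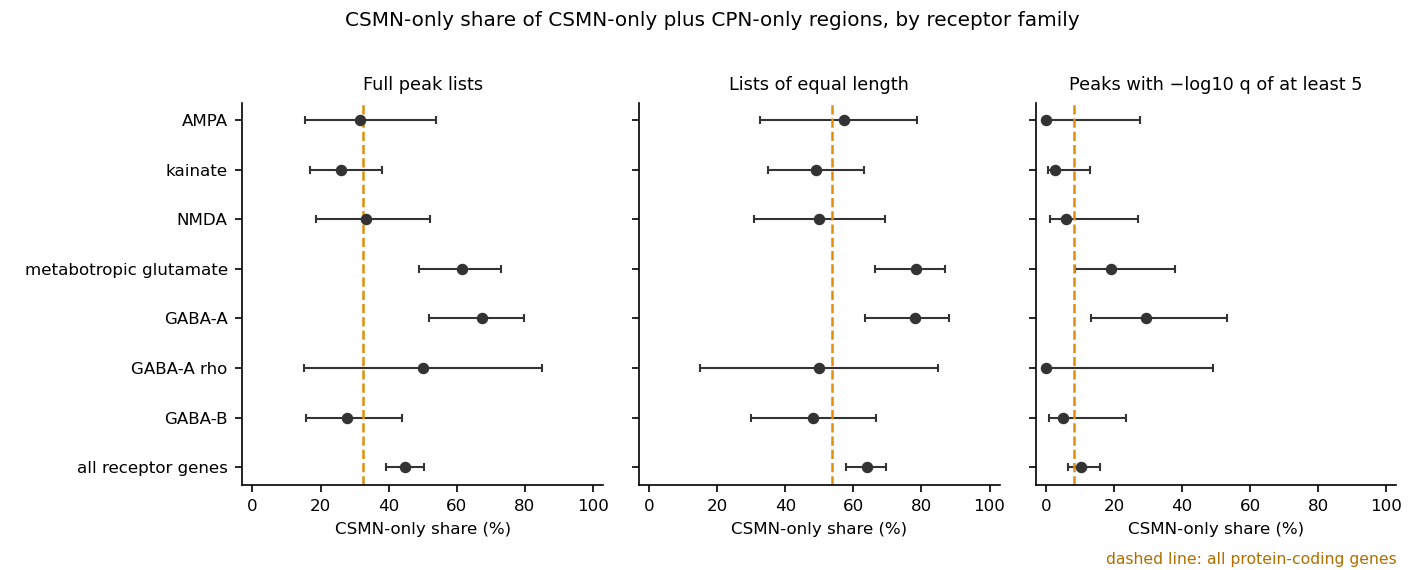
CSMN-only share (x axis, percent of the regions of both classes) for 7 receptor families and all receptor genes, with the full lists, lists of equal length and peaks with a −log10 q of at least 5. Points are shares, bars 95% Wilson intervals and the dashed line the share at all protein-coding genes (32.5, 53.7 and 8.34%), which metabotropic glutamate and GABA-A receptor genes exceed in all 3 panels.

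Position in the gene differed by class. Of the 136 CSMN-only regions 134, or 98.5%, had their summit inside a gene body more than 1 kb from its ends, and none lay at an end. Of the 167 CPN-only regions, 159 (95.2%) lay in the body and 1 at an end, while 39 of the 269 shared regions (14.5%) lay at an end. Gene bodies made up 93.4% of the length of these windows. At the 26 receptor genes of at least 100 kb, 97.6% of CSMN-only, 97.9% of CPN-only and 86.6% of shared regions lay in the body, against 92.8%, 93.1% and 82.4% at all protein-coding genes of that length, whose bodies made up 92.8% of the window length. CSMN-only regions had a median width of 169 bp in CSMN, and CPN-only regions had one of 237 bp in CPN 1 and 188 bp in CPN 2. Regions found in a single CPN library had one of 181 bp in CPN 1 and 132 bp in CPN 2.

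After the Grin2b region, the strongest CPN-only regions by the lower CPN fold lay in Grm3 (chr5:9570916-9571273, folds 10.2 in CPN 1 and 12.6 in CPN 2), Gabrb1 (chr5:72094705-72094825, 10.2 and 10.8) and Gria2 (chr3:80774462-80774683, 10.3 and 7.89). The next 6 were in Grm5, Gria3, Grik1, Grin2a, Grik4 and Gria1, with the lower CPN fold between 6.28 and 7.45. Families with a CSMN-only lean thus also held strong CPN-only regions. Among the CSMN-only regions, those after Grm8 and Grm5 by fold included some in Gabra2 (fold 3.44), Gabrg3 (3.21), Grm7 (3.04), Grid1 (2.95), Gabrg3 again (2.95) and Grin1 (2.86).

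**Figure D4:**
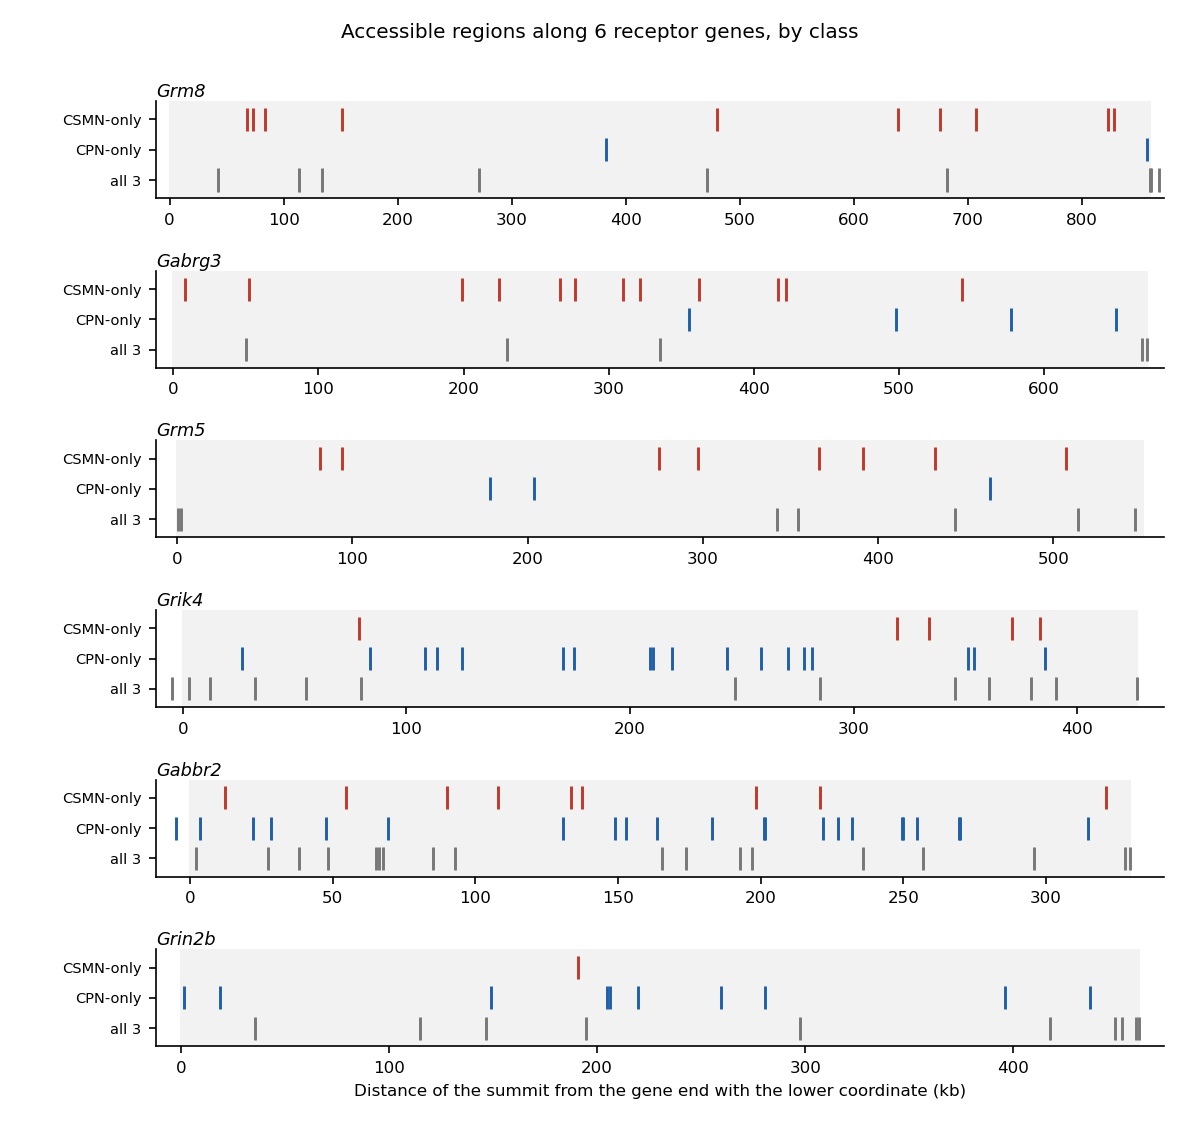
Position of CSMN-only, CPN-only and shared regions along 6 receptor genes, as distance of the summit from the gene end with the lower coordinate (x axis, kb), with the gene body shaded. CSMN-only marks outnumber CPN-only marks at Grm8 (10 and 2), Gabrg3 (12 and 4) and Grm5 (8 and 3), and the reverse is seen at Grik4 (5 and 18), Gabbr2 (9 and 22) and Grin2b (1 and 10).

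The receptor genes are long, with a median length of 199 kb against 17.2 kb for all protein-coding genes. Among genes of at least 100 kb the CSMN-only share, summed over genes, was 46.5% at the 26 receptor genes and 32.2% at all 2428. They were sparser in regions than other long genes, with a median of 4.91 regions per 100 kb against 10.4. The share moved with the density of regions found in all 3 libraries. At receptor genes of at least 100 kb it was 61.5% at the 4 genes with under 1 shared region per 100 kb, 55.8% at the 11 with 1 to 2, 43.4% at the 9 with 2 to 4 and 27.5% at the 2 with 4 or more (Gabbr2 and Grik3). All protein-coding genes of that length had shares of 52.1, 37.3, 31.0 and 27.5% in the same bins. The end bins of the receptor genes rest on few genes. In the lowest bin Gabrg3 held 12 of the 16 CSMN-only and 4 of the 10 CPN-only regions, while Grin2a had 1 and 6.

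Over the 19 receptor genes with at least 5 CSMN-only and CPN-only regions together, Spearman's rho between the share and the density of shared regions was -0.40, and over the 2579 such protein-coding genes it was -0.13. Both are descriptions across genes that share libraries and list lengths. In the 2 middle bins the receptor share was above that of all genes and the interval of the receptor share did not reach it. The part of local peak density in the CSMN-only lean of the GABA-A and metabotropic genes was not tested beyond these bins.

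**Figure D5:**
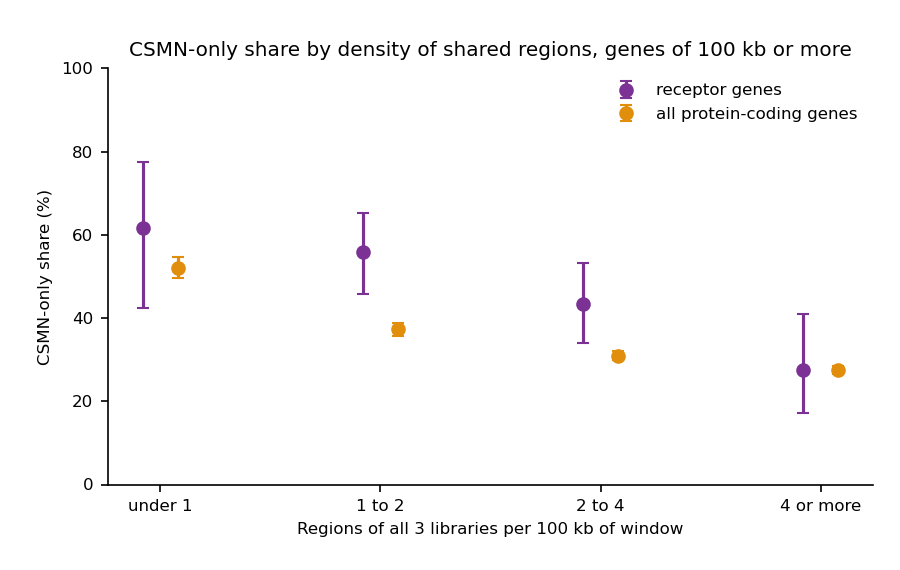
CSMN-only share (y axis, percent) at genes of at least 100 kb, by number of regions found in all 3 libraries per 100 kb of window (x axis), for receptor genes and for all protein-coding genes, with 95% Wilson intervals. The share is lower in denser windows in both sets, and receptor genes lie at 55.8 and 43.4% in the middle bins against 37.3 and 31.0%. The lowest receptor bin holds 4 genes, with most of its CSMN-only regions in Gabrg3, and the highest holds 2 genes.

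The partners of the receptors had a CSMN-only share whose interval covers that of all protein-coding genes. The 33 genes of auxiliary subunits, anchors and ligands had 33 CSMN-only regions against 88 CPN-only ones, a share of 27.3% (20.1 to 35.8), against 32.5%. More regions were CPN-only at 17 genes and CSMN-only at 4, or 51.5% and 12.1%, against 44.2% and 16.9% of all genes with a region. A gene-end peak in all 3 libraries was present at 31, or 93.9%, against 64.1%. The 12 AMPA receptor partners had 17 and 61, led by Gsg1l, an AMPA receptor auxiliary subunit, with 3 and 18, Shisa9 with 0 and 7 and Shisa6 with 3 and 8. Among the 5 metabotropic receptor partners 4 regions were CSMN-only and 15 CPN-only, and among the 7 GABA-A receptor partners 4 and 7. The lists used here counted Shisa7 (1 and 1) with the AMPA receptor partners and Shisa8 (0 and 0) with the GABA-A receptor partners. The share of the metabotropic partners was 21.1% (8.51 to 43.3), and its interval did not reach that of their receptor genes (49.0 to 72.9). The share of the GABA-A partners was 36.4% (15.2 to 64.6), and its interval overlapped that of their receptor genes (52.0 to 79.9). So few regions, with 1 CSMN library, cannot show whether the partners of either family lack the lean. The 4 GABA-B receptor partners had 6 and 3, with 3 and 1 at both Kctd8 and Kctd16, which encode auxiliary subunits that shape the response of the receptor. The 3 cerebellin genes had 1 of each kind, Neto1 and Neto2 together 1 of each, and the 8 other subunit genes of inhibitory channels 3 and 4.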

How the data were processed

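ATAC-seq was done on sorted CSMN (1 library) and CPN (2 libraries). Per the submitters' processing notes, the build was mm10 and the tools included MACS2 2.2.7.1, BWA 0.7.17 and bedtools 2.29.2, with no step named for any. The sources used here do not state read filters, a shift of reads for the transposase or the caller's mode. Each list was taken as called on 1 library. A peak in the deposited lists has a fold enrichment (a ratio), a −log10 p and a −log10 q, which the authors' caller computed. In 100% of peaks the deposited score was the whole part of 10 times the −log10 q. The summit offset deposited by the authors is in bp.

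Peaks were merged into regions with Python 3.11.15, numpy 2.4.6 and pandas 2.3.3, using an overlap of at least 1 bp. Classification was tested on 20000 simulated regions, 0 of which were misclassified, and the 204313 regions of the 3 lists equalled those from bedtools 2.31.1. Peaks were ranked within a list by −log10 p, and the best-ranked peak of a gene is the first of these. Wilson 95% intervals came from scipy 1.17.1 and figures from matplotlib 3.10.9. No p-value was computed, because CSMN had 1 library.

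The gene table held no strand, so a gene-end peak (within 1 kb of the start or stop of the gene) was counted in place of one at the gene start, and start sites came from RefSeq promoter windows. Every member may be named, but 5 enter the totals only and are not reported singly here. Of the rest, those among the 6 members with the largest excess in each direction, the 6 densest, the best-ranked peaks, and the 10 strongest CSMN-only and CPN-only regions were given in full. The members, gene lists and rules were chosen with earlier results of these data known.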

Additional observations from a re-analysis of the deposited data

How the results depend on the processing

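No paired analysis was possible because the CSMN group has 1 library and no test was run. A window of the gene body alone or of 50 kb on each side, and an overlap of at least 0.5 of the shorter peak, gave CSMN-only shares of 45.6, 43.2 and 46.9% at receptor genes, close to the 44.9% of the report (32.0, 33.5 and 35.6% at all protein-coding genes), and kept the direction at all 11 members named for their excess. With 50 kb on each side, however, 16 members had more CSMN-only and 19 more CPN-only regions, in place of 19 and 14, and 3 members turned to more CPN-only. Peaks with a −log10 q of at least 5 gave a share of 10.3%, 2 members with more CSMN-only and 28 with more CPN-only regions, and 224 CSMN, 416 CPN 1 and 413 CPN 2 peaks. The difference of CSMN-only minus CPN-only regions then reversed to -2 at Grm5, -2 at Grm7 and -1 at Gabra5, and of the 19 members with more CSMN-only regions 10 turned to more CPN-only. Lists of equal length gave a share of 63.9%, against 53.7% at all protein-coding genes, and 394 CPN 2 peaks, the last chosen after seeing the data. With these lists 7 members had more CPN-only and 25 more CSMN-only regions, or 15.9% and 56.8%, against 26.8% and 30.6% of genes. The difference then reversed to 1 at Gabbr2, 1 at Grik3 and 1 at Grm4. The stronger threshold removed weak peaks from all lists, among them those of most CSMN-only regions. Equal length removed weak peaks from the CPN lists alone. Other reasons for the changes were not tested. Leaving out a CPN library, which defines CPN-only regions by 1 library, gave shares of 31.8 to 34.4% against 21.4 to 26.2% at all protein-coding genes, 23 members with more CPN-only and 14 with more CSMN-only regions. The count of 38 members with a gene-end peak in all 3 libraries was 32 at 500 bp, 40 at 2 kb, 35 with the stronger peaks and 38 to 39 without a CPN library. Of all protein-coding genes, 64.1% had such a peak. That share was 60.4% at 500 bp, 68.6% at 2 kb, 60.9% with the stronger peaks and 64.6 to 64.7% without a CPN library. The lists hold no depth, so a weak CSMN-only peak and a peak just missed in CPN cannot be told apart.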
